A study of Homo sapiens with 2 samples.

Results

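A set of 10 genes for calponins, transgelins and some other contractile proteins of smooth muscle and non-muscle cells was read here on 2 arrays. These genes are the calponins CNN1, CNN2 and CNN3, the transgelins TAGLN and TAGLN2, the myosin light chain MYL9, the actin ACTA2, the caldesmon CALD1 and the tropomyosins TPM1 and TPM2. They were chosen by name from 19775 measured genes because CNN1 and TAGLN stood among the largest differences of this same comparison, so all their values are a description, and all 35 of their probe sets that carry 1 gene symbol were used, of 41097 such probe sets. HCC4006 is a human NSCLC cell line with an EGFR exon 19 deletion that is sensitive to erlotinib, and HCC4006ER is its erlotinib-resistant derivative, labelled as having an EMT phenotype and carrying the same deletion. HCC4006ER cells were obtained by raising erlotinib from 3 nM to 4 μM over 3 months, and they are 1 derived population. At the level of E-cadherin (CDH1), whose loss is the usual sign of EMT, the array labelled HCC4006ER goes against that label, with 11041 against 10469 in HCC4006 and with 1476 against 1274 in a second probe set. The study reports that HCC4006ER cells lost E-cadherin protein and had lower E-cadherin mRNA, by RT-PCR and on the array. The deposited CDH1 signals thus also differ from that report. Vimentin (VIM), a mesenchymal marker, was 1.53-fold higher, and both arrays are called by their labels here. Neither line received further treatment during the 48 hours of culture before RNA was taken. Total RNA of 3 preparations per line was mixed and hybridized to 1 Affymetrix array, so there is no replicate and no test, and a difference in the share of cells that express a gene cannot be told apart from a difference in RNA per cell.

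In smooth muscle, actin filaments slide against myosin once the regulatory light chain of myosin is phosphorylated by myosin light chain kinase. Tropomyosins lie along the actin filament, and calponin and caldesmon bind it and restrain the myosin ATPase, while transgelin, a smaller relative of calponin, crosslinks actin. Many of these genes are known targets of serum response factor (SRF), which binds the CArG box together with the cofactors MRTF or myocardin, and they are also known to respond to TGF-β. In epithelial cells that take on mesenchymal features, several are used as markers of a contractile cytoskeleton.

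Promoter sequence was examined because SRF is the best known regulator of this gene family. RefSeq windows of GRCh38.p14 from 250 bases before to 50 bases after an annotated start were given for 8 of the 10 genes, 16 windows in all, and none was used for TAGLN and MYL9. The CArG box was searched as CC, 6 letters of A or T, and GG, on both strands. The 250 bases before the start are shown for CNN1, the gene with the largest difference, and for CNN2, the 1 of the 8 searched genes with a full CArG box. They are also shown for the ACTA2 start that lies before a pair of near matches. Capitals mark CArG boxes with at most 1 differing letter and matches to CATTCC, the motif bound by TEAD factors.
CNN1, chr19:11538601-11538850, plus strand: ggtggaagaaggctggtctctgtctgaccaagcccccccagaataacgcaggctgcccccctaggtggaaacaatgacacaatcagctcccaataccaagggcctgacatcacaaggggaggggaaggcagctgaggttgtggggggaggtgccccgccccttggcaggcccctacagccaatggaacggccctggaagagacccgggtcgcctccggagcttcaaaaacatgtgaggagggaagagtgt
CNN2, chr19:1026358-1026607, plus strand: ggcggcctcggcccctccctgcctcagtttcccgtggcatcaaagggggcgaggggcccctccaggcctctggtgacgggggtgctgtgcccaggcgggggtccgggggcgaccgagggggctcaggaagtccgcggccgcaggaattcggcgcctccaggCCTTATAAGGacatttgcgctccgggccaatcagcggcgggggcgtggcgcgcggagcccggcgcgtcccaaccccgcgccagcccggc
ACTA2, chr10:88952774-88953023, minus strand: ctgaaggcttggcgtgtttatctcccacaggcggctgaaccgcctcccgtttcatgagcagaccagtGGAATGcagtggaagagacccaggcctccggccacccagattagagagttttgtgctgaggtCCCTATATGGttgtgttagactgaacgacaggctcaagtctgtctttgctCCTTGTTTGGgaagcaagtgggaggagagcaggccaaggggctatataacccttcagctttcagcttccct

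The CNN2 window held CCTTATAAGG, which starts 89 bases before the annotated start, and none of the other 15 windows held a full CArG box, which occurs in 1.29% of 35116 windows. With 1 letter free, the ACTA2 window held CCCTATATGG and CCTTGTTTGG, which begin 121 and 71 bases before the start, and 2 of the 4 CALD1 windows held a near match. Such near matches occur in 18.9% of all windows. The letters CATTCC, on either strand, were found in windows of ACTA2, CALD1 and CNN3 and in 14.0% of all windows, and TATAAA was found in 1 CALD1 window and in 11.5% of all windows. The CNN1 window held none of these motifs. The genes with a match were CALD1, which was 1.68-fold higher in HCC4006ER, and CNN2, CNN3 and ACTA2, whose signals lay within 1.5-fold between the arrays. TAGLN and MYL9 were not searched, and whether the motifs go with the differences was not tested.

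Signals are MAS5 intensities on a linear scale, a summary of the probe pairs of a probe set, and a log2 fold is taken as HCC4006ER over HCC4006, so that positive values mean a higher signal in the resistant line. The level of 127 probe sets for olfactory and bitter taste receptors, genes not known to be used by lung cancer cells, was taken as background, with the 95th percentile at 96.2 for HCC4006 and 91.6 for HCC4006ER. A signal under this level is called not well above background, and a fold with such a dim side is computed against the level and given as at least that size. Each gene was read from its brightest probe set, and 1.5-fold was used as threshold. Under these rules 4 of the 10 genes were higher in HCC4006ER (CNN1, TAGLN, MYL9 and CALD1), 0 were lower and 6 lay within 1.5-fold. Of all 11896 genes above background on at least 1 array, 7.99% were higher and 11.2% were lower past the same size, and since the genes were chosen on this comparison nothing is read from the difference. The median log2 fold of the 10 genes was 0.29, and that of all genes above background was -0.04. CALD1 at 1.68-fold lay just past the threshold and TPM1 at 1.30-fold just short of it.

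**Figure D1:**
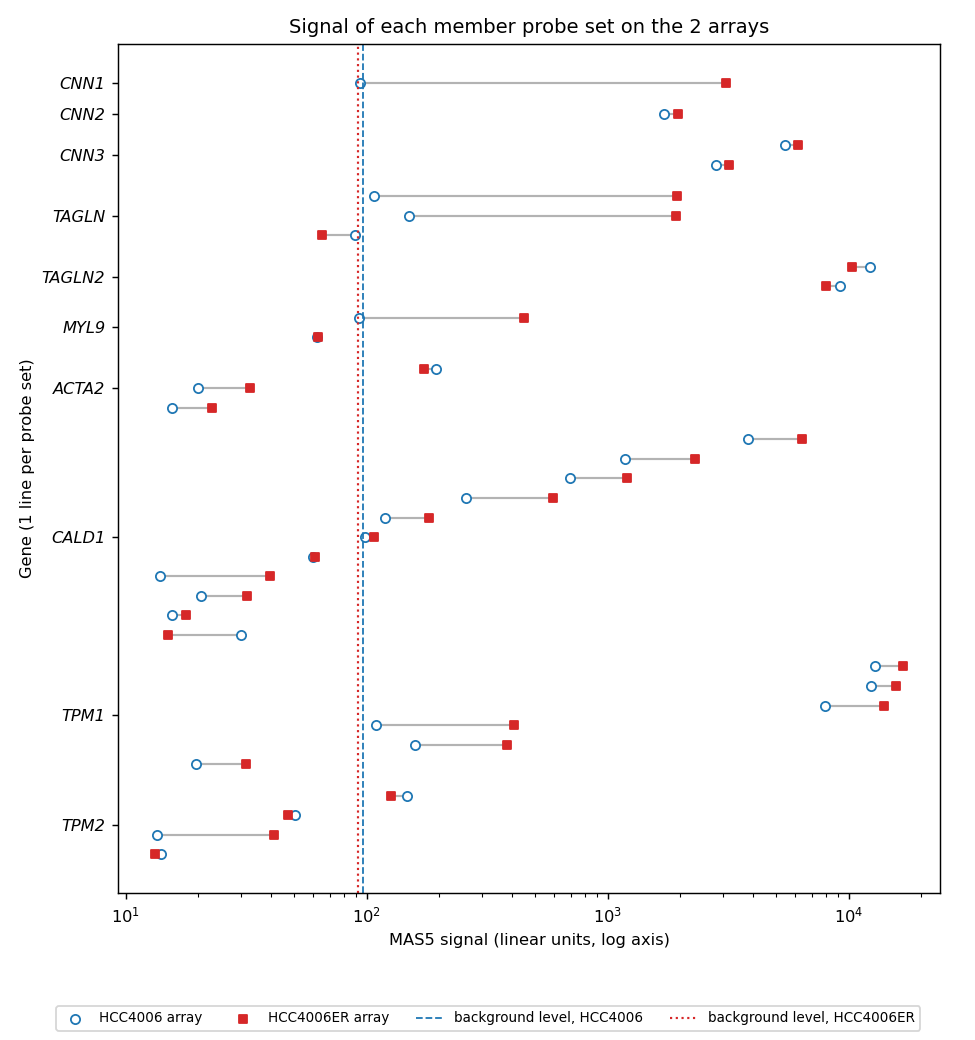
MAS5 signal on a log axis for the 35 probe sets of the 10 genes, 1 line per probe set, with open circles for the HCC4006 array and filled squares for the HCC4006ER array. The vertical lines are the background levels of 96.2 and 91.6; CNN1, the 2 brighter TAGLN probe sets and 1 MYL9 probe set start near these lines on the HCC4006 array and lie far to the right of them on the HCC4006ER array.

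The 3 calponins differed from each other. CNN1, the calponin of differentiated smooth muscle, had a signal of 93.9 in HCC4006, not well above background, and of 3102 in HCC4006ER, at least 32.2-fold higher. With dim sides at the background level it ranked 1 by log2 fold among the genes above background, and it was read from 1 probe set, so no second probe set bears on this value. CNN2, a calponin found in many non-muscle cells, read 1703 in HCC4006 and 1952 in HCC4006ER, a log2 fold of 0.20. CNN3, the acidic calponin, read 5427 and 6127 in its brighter probe set and 2805 and 3186 in the other, with log2 folds of 0.18 in both. The calponins of non-muscle cells were thus well above background in both lines and lay within 1.5-fold, and the smooth muscle calponin was above background in HCC4006ER alone.

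The transgelins showed a similar split. TAGLN, also known as SM22-alpha, read 149 in HCC4006 and 1913 in HCC4006ER in the probe set taken for the gene, a 12.8-fold difference. Its second probe set above background read 106 and 1942, an 18.2-fold difference. Both probe sets were therefore near background in HCC4006 and bright in HCC4006ER. A further TAGLN probe set read 89.0 and 65.4 and stayed under the background level in both lines. TAGLN2, the transgelin of many non-muscle cells, was bright in both lines, at 12204 in HCC4006 and 10324 in HCC4006ER, with log2 folds of -0.24 and -0.19 in its 2 probe sets.

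MYL9 encodes the regulatory light chain of smooth muscle and non-muscle myosin, the subunit on which myosin light chain kinase acts. Its signal was 92.5 in HCC4006, not well above background, and 447 in HCC4006ER, at least 4.65-fold higher. The other MYL9 probe set read 62.2 and 62.9, under the background level in both lines. ACTA2, the smooth muscle alpha-actin that is often read as a sign of myofibroblasts, did not share this pattern. It read 193 in HCC4006 and 172 in HCC4006ER, a log2 fold of -0.17, and its 2 other probe sets were dim, at 15.5 to 32.6 over both arrays. The mean log2 fold over all 3, with dim sides at the background level, was -0.10.

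CALD1, which encodes the caldesmons of smooth muscle and non-muscle cells, was 1.68-fold higher in HCC4006ER, at 3805 in HCC4006 and 6409 in HCC4006ER. The gene has 11 probe sets, of which 6 were above background on both arrays. All 6 were higher in HCC4006ER, and 5 of them passed 1.5-fold, with folds of 1.52 to 2.30. The other one read 97.9 and 107. The log2 folds of the 6 had an SD of 0.36, against a pooled SD of 0.27 between probe sets of the same gene over 5264 genes. That pooled SD is the only measure of disagreement these arrays give, and it does not cover how far repeat arrays or cultures would differ.

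Both tropomyosins lay within 1.5-fold in the probe set taken for the gene. TPM1 had 5 probe sets above background on both arrays, and all 5 were higher in HCC4006ER, but by unequal amounts. Its brightest probe set read 12867 in HCC4006 and 16784 in HCC4006ER, 1.30-fold, and the next 12404 and 15644, 1.26-fold. A further bright one read 7996 and 13950, 1.74-fold. The fourth and the fifth, much dimmer, read 158 and 382, 2.42-fold, and 109 and 406, 3.71-fold. Thus 3 of the 5 passed 1.5-fold while the probe set taken for the gene did not, and the SD of the 5 log2 folds was 0.65. Which TPM1 transcripts each probe set reads is not given in the sources used here. TPM2, the beta-tropomyosin, read 147 in HCC4006 and 126 in HCC4006ER in its 1 probe set above background, a log2 fold of -0.22. Its other 3 probe sets read 13.3 to 50.4, and the mean log2 fold over all 4, with dim sides at the background level, was -0.11. The TPM2 difference is smaller than the pooled SD between probe sets.

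**Figure D2:**
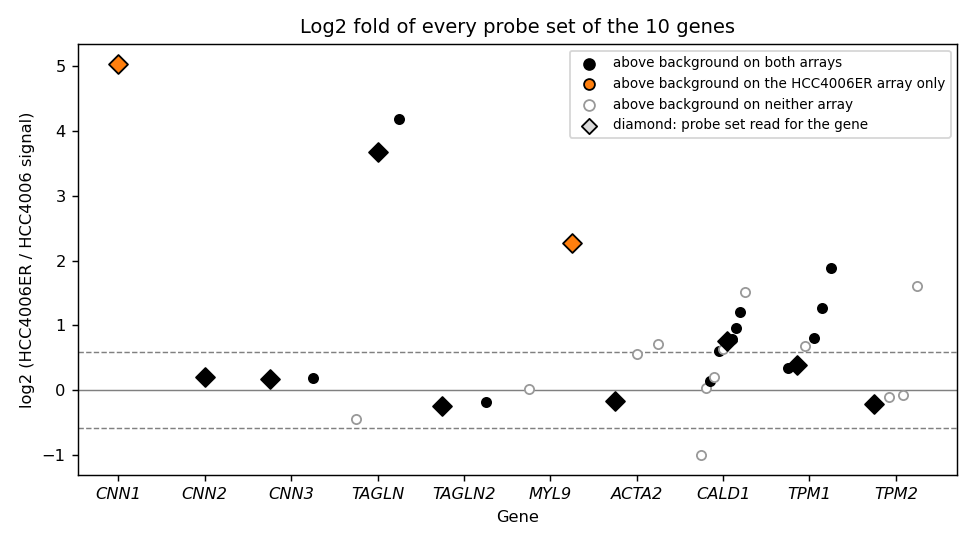
Log2 fold between the HCC4006ER and HCC4006 arrays for each probe set, with diamonds for the probe set read for the gene, black for probe sets above background on both arrays, orange for those above background on the HCC4006ER array alone and open circles for those above it on neither. The dashed lines mark 1.5-fold; the TPM1 points above background run from 0.33 to 1.89, and those of CNN3 nearly coincide.

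Counted by probe set, 22 of the 35 were above background on at least 1 array. Of these, 12 were higher past 1.5-fold in HCC4006ER, 0 were lower and 10 lay within it. The 12 belong to CNN1, TAGLN, MYL9, CALD1 and TPM1. Over all probe sets with 1 symbol above background, 9.25% were higher and 10.1% were lower. In the 5 genes with over 1 probe set above background, these probe sets all had log2 folds of the same sign. The 13 dim probe sets read 13.3 to 89.0 and included 9 with a higher and 4 with a lower signal in HCC4006ER. Past 1.5-fold by the measured ratio lay 6 of these 13, and so did 48.8% of the olfactory and taste receptor probe sets, so a dim probe set past this size carries no weight here.

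**Figure D3:**
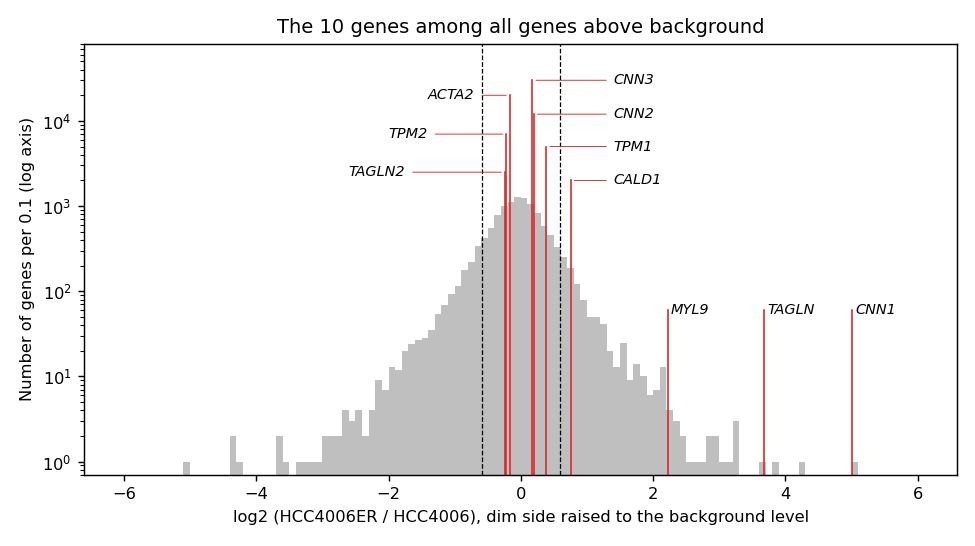
Number of genes above background by log2 fold in steps of 0.1, on a log axis, with the 10 genes marked in red and 1.5-fold as dashed lines. MYL9, TAGLN and CNN1 lie in the right tail at 2.22, 3.68 and 5.01 (CNN1 and MYL9 against the background level), CALD1 at 0.75 lies just past the dashed line, and the other 6 lie between the lines.

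Other genes of the actin and myosin apparatus were taken from 6 lists of 91 genes, of which 83 were measured and 71 were above background. Of these 71, 10 were higher past 1.5-fold in HCC4006ER and 3 were lower, against 7.99% and 11.2% of all genes above background. Their median log2 fold was 0.21. Scaling the arrays to equal medians, which moves every log2 fold up by 0.14, gave 19 higher and 2 lower genes, so that 90.5% of the genes past the threshold were higher against 76.9% with the signals as deposited. The medians, 63.4 for HCC4006 and 57.7 for HCC4006ER, lie under the background levels, so this scaling is set by dim probe sets. Quantile normalization gave 10 higher and 4 lower genes, 71.4% higher. Over all genes above background, 950 of the 2278 past the threshold were higher with the signals as deposited. The shares over all genes under the 2 other scalings are not given here. The change with scaling is therefore not read as particular to the related genes.

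Of the 6 lists, 1 held 14 genes, smooth muscle markers together with ACTC1, ACTA1, CASQ2 and TAGLN3, which are not particular to smooth muscle. Only 5 were above background, SMTN, SYNM, KCNMB1, ACTC1 and TAGLN3, and KCNMB1 barely so, at 96.8 in HCC4006 and 81.1 in HCC4006ER. Of the 5, 0 passed 1.5-fold in either direction, where 19.1% of all genes above background did. With equal array medians 1 of them, SMTN at 1.52-fold, was higher. MYH11, the smooth muscle myosin heavy chain, stayed under the background level in all 7 of its probe sets, the highest reading 49.3 in HCC4006 and 55.7 in HCC4006ER. The intermediate filament protein desmin (DES) reached 21.8 and 45.8, and the SRF cofactor myocardin (MYOCD) 40.4 and 23.4. Smoothelin (SMTN) read 747 and 1030, a log2 fold of 0.46, the intermediate filament protein SYNM 1159 and 848, a log2 fold of -0.45, and TAGLN3, the neuronal transgelin, 103 and 137, a log2 fold of 0.41.

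Of 8 cytoplasmic actin and non-muscle myosin genes above background, 3 exceeded 1.5-fold, all of them higher in HCC4006ER, and the median log2 fold was 0.44. Of all genes above background, 7.99% were higher and 11.2% were lower, and with 8 genes nothing is read from the difference. The non-muscle heavy chains MYH9 (2898 in HCC4006 and 5462 in HCC4006ER) and MYH10 (1248 and 2396) were 1.88-fold and 1.92-fold higher. The light chain MYL12A, a close relative of MYL9, read 2314 and 4455, 1.93-fold higher. The cytoplasmic actin ACTB was among the brightest genes, at 23016 and 21368, a log2 fold of -0.11. The other non-muscle heavy chain, MYH14, read 205 and 295, 1.43-fold, and passed the threshold only with equal array medians, where the list held 4 higher genes. The light chains MYL6, MYL6B and MYL12B lay at 1.16-fold, 1.28-fold and 1.10-fold.

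The kinase that phosphorylates the regulatory light chains of myosin, MYLK, was 2.25-fold higher, at 1221 in HCC4006 and 2749 in HCC4006ER. A second MYLK probe set above background read 484 and 1135, a log2 fold of 1.23. PPP1R12C, a targeting subunit of myosin phosphatase, which removes this phosphate, was also higher, at 138 and 441, 3.19-fold. The related subunits PPP1R12A and PPP1R12B lay within 1.5-fold, at 1741 and 2044 and at 154 and 139. PPP1R14A, the inhibitor of this phosphatase known as CPI-17, was 1.62-fold lower, at 212 and 131, and lay within the threshold when the arrays were scaled to equal medians. Both MYLK and PPP1R12C also have dim probe sets. Averaged over all probe sets their log2 folds were 0.82 and 0.60 by measured ratio, past the threshold, and 0.44 and 0.51 with dim sides at the background level, short of it.

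Among actin crosslinkers and adhesion anchors, 3 of 18 were higher, 1 was lower and 14 lay within 1.5-fold. The shares over all genes above background were 7.99% higher and 11.2% lower, and counts in lists this small are only described. FSCN1 (fascin), which bundles actin in filopodia, read 180 in HCC4006 and 928 in HCC4006ER, 5.15-fold higher, and its second probe set read 150 and 904. CSRP2, a LIM protein of smooth muscle, read 499 and 1667, 3.34-fold higher, and its relative CSRP1 3297 and 5101, 1.55-fold. The leukocyte plastin LCP1 was 1.78-fold lower, at 352 and 198. Of 12 thin filament regulators above background, LIMA1 alone passed in the probe set taken for the gene, at 4345 and 9101, 2.09-fold higher. The tropomyosin TPM4 had a log2 fold of 0.20, cofilin CFL2 of 0.46 and cortactin CTTN of 0.44. The other CFL2 probe sets read 3871 and 7040, and 2517 and 4294, with log2 folds of 0.86 and 0.77, past the threshold. The dimmest LIMA1 probe set read 360 and 476, a log2 fold of 0.40, short of it. With each gene read as the mean of all its probe sets, or with equal array medians, the list held 2 higher genes.

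Of the transcription factors linked to these genes, SRF read 399 in HCC4006 and 545 in HCC4006ER in its brighter probe set, a log2 fold of 0.45. The other SRF probe set, also above background on both arrays, read 176 and 186, a log2 fold of only 0.08. With equal array medians the brighter SRF probe set lay at 1.502-fold, barely past the threshold, and 3 genes of its list were higher in place of 1. The SRF cofactor MRTFA read 438 and 427, a log2 fold of -0.03 that turned positive under that scaling. MRTFB was 1.76-fold lower, at 1831 and 1043, in its brightest probe set, while a dim second one read 81.1 and 94.4. Of 15 SRF-related regulators above background, GATA6 was higher, at 309 and 649, 2.10-fold, MRTFB was lower, and 13 lay within 1.5-fold, among them MEF2D with a log2 fold of -0.53. The median log2 fold of this list was -0.03.

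**Figure D4:**
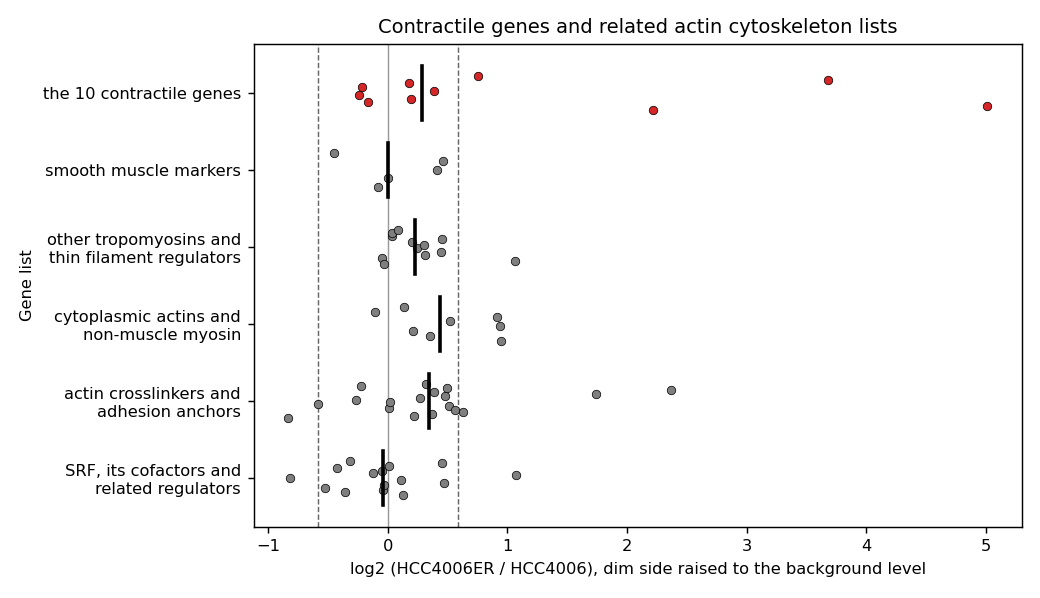
Log2 fold, with a dim side raised to the background level, for the 10 contractile genes in red and for the members above background of 5 of the 6 related lists in grey. Black bars are medians and dashed lines mark 1.5-fold; the medians run from -0.03 for the SRF list to 0.44 for the actin and non-muscle myosin list, and no gene plotted for the smooth muscle marker list lies past the lines.

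Cells other than the labelled line would bring their own transcripts. Of 8 markers of vascular smooth muscle and pericytes, 1 was above background on each array, NOTCH3 at 306 in HCC4006 and RGS5 at 119 in HCC4006ER, and the summed signal was 541 in HCC4006 and 342 in HCC4006ER. Of 8 fibroblast markers, 1 was above background in HCC4006 (THY1, at 125) and 0 in HCC4006ER, with a summed signal of 400 and 209. The sums for both groups of markers include signals under the background level. Of 6 endothelial markers 1 was above background on both arrays, and of 4 leukocyte markers measured 1 was in HCC4006 and 0 in HCC4006ER. Among 6 markers of lung epithelium, 5 were above background on both arrays, with a summed signal of 61079 and 61888, and NKX2-1 was not. As a sign of RNA quality, the ratio of the 3′ to the 5′ probe set of ACTB was 1.09 on both arrays.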

How the data were processed

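Each cell line was hybridized to 1 Affymetrix HG-U133 array. The deposited values are MAS5 signals, which give the intensity of each probe set on a linear scale. GCOS 1.4 is also listed in the submitters' processing notes. The values had been scaled to a mean of 500.1 on each array after 2% was trimmed at each end. Detection calls and probe-level values were not used here. Precision is limited by having 1 array a line.

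Gene symbols came from the platform annotation, with 41097 of 54675 probe sets carrying 1 symbol, 1801 several and 11777 unlisted, and were updated through gene identifiers in RefSeq (GRCh38.p14), where 41043 matched. The members and lists were chosen with earlier results of these data known. All members were named, with the 3 largest differences above background of each list and selected regulators and cell type markers, and CSRP1, VIM, the PPP1R12 relatives and the non-muscle myosins within 1.5-fold were named after their values were seen. Genes of the lists without a probe set of 1 symbol were not analysed here. Motif searches used all promoter windows of 300 bases, and the search with 1 letter free and the neighbouring genes were added after seeing the data. The separate counts of 1 of the 6 lists are not reported here. Protein comparisons that had been planned were not run. Alternatives covered the scaling between arrays, the choice of probe set, the background level and filter, and the threshold. The gene step was tested on simulated data. Values were computed with pandas 2.3.3 and numpy 2.4.6 in Python 3.11.15, and plots were drawn with matplotlib 3.10.9.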

Additional observations from a re-analysis of the deposited data

How the results depend on the processing

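The count of 4 contractile genes higher past 1.5-fold and 0 lower was the same under 8 alternatives, and with a 2-fold threshold 3 were higher (CNN1, TAGLN and MYL9). The genes were not always the same: when a gene was read as the mean of all its probe sets, or from the one that differed most between the arrays, TPM1 took the place of CALD1. With the latter choice the median log2 fold was 1.89, the value of TPM1 among the 7 members then above background, and under the 7 other alternatives it ran from 0.28 to 0.45. CNN1 ran from 5.01 to 5.18, TAGLN from 2.47 to 4.19 and MYL9 from 1.14 to 2.41 over the alternatives. These ranges use measured ratios, dim probe sets included, except where signals were raised to the background level. That alternative gave the low end of 5.01 for CNN1. Among the related genes, 19 were higher with equal array medians (90.5% of those past 1.5-fold, against 76.9%) and 6 with a 2-fold threshold. Without a filter on low signals 6 were lower, and 0 with a 2-fold threshold. The shares over all genes under these alternatives are not given here. No paired analysis was possible because each cell line has 1 array. Signal over background limits CNN1 and MYL9 in HCC4006, which are given as bounds.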

Other observations

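The genes that lie beside CNN1, TAGLN and MYL9 in the genome were read as well, the 2 nearest measured protein-coding genes on each side in the RefSeq annotation of GRCh38.p14. All 12 were above background on at least 1 array and all 12 lay within 1.5-fold, with log2 folds of -0.48 to 0.51. Of all genes above background, only 19.1% passed 1.5-fold in either direction, so nothing is read from this count. Beside CNN1, ECSIT, a mitochondrial and signaling adaptor, read 773 in HCC4006 and 628 in HCC4006ER, a log2 fold of -0.30, and the transcription elongation factor gene ELOF1 read 2772 and 2555, a log2 fold of -0.12. Beside TAGLN, SIDT2 read 433 and 482, a log2 fold of 0.15, and the proprotein convertase gene PCSK7 read 632 and 901, a log2 fold of 0.51. Beside MYL9, DLGAP4 had a log2 fold of 0.41 and the homeobox repressor gene TGIF2, known for its part in TGF-β signaling, of 0.35.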
